A study of Mus musculus with 9 samples.

Results

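The cyclins and cyclin-dependent kinase (CDK) inhibitors of the G1 phase were described over time in neural stem cells (NSCs) made from mouse embryonic stem cells. The set was given by name and holds 10 genes: the D-type cyclins Ccnd1, Ccnd2 and Ccnd3, the kinase gene Cdk6, the E-type cyclins Ccne1 and Ccne2, and the inhibitors Cdkn1a, Cdkn1b, Cdkn2c and Cdkn2d. All 10 had a row among the 38197 gene symbols measured, and all 10 passed the filter on low counts together with the rest of the 14742 genes tested. The cells were wild type, of strain 129, and were grown as a monolayer. By the sample labels, retinoic acid (RA) and SAG, an agonist of the Hedgehog receptor component Smoothened, were present in every group. The labels give this as 0 to 3 days in differentiation conditions (DDC). The study's methods place the change to medium without supplements later than 3 days, but before 4.5DDC. NSCs carrying the surface protein Prominin-1 were isolated at 4.5DDC, 5.5DDC or 6.5DDC, so every library was taken after both agents had been withdrawn, and there were no untreated libraries among the 9. Each time point had 3 replicates, and poly-A RNA sequencing gave 11066568 to 25506193 counts per library. Another label of the same samples gives the time as 4, 5 and 6 days; the titles, with 4.5, 5.5 and 6.5, were followed.

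D-type cyclins are made in response to growth signals and activate CDK4 and CDK6 in G1. These kinases phosphorylate the retinoblastoma protein, which frees E2F factors, and E2F factors drive genes of S phase including those of the E-type cyclins, the partners of CDK2. The inhibitors encoded by Cdkn2c (p18) and Cdkn2d (p19) bind CDK4 and CDK6, while those encoded by Cdkn1a (p21) and Cdkn1b (p27) act on a wider set of CDK complexes. In the developing nervous system, cells that leave the cycle commonly lose cyclins and gain p27.

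Libraries of replicate 1 stood apart from the others, and by the root mean square differences given below least so at 4.5DDC. On the second principal component of log2 CPM (counts scaled to library size), which held 27.2% of the variance, the replicate 1 libraries lay at 23.9, 54.5 and 49.3 at 4.5DDC, 5.5DDC and 6.5DDC, and the 6 other libraries lay between -44.6 and -3.12. At 5.5DDC the root mean square log2 difference over 11996 genes was 0.214 between replicates 2 and 3, against 0.613 and 0.628 between replicate 1 and each of them; at 4.5DDC these values were 0.505, 0.561 and 0.552, and at 6.5DDC 0.428, 0.614 and 0.719. For those of the 10 genes that passed the test, the value with replicates 2 and 3 only is given beside that of all libraries; genes of the lists are given from all libraries only. The labels do not say whether replicates were separate cultures. The study's methods describe the sample numbers in its figure legends as counts of biological replicates. How those of the sequenced libraries were made is not said. The p-values therefore set differences between time points against the spread between these libraries, whatever that spread holds.

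From 4.5DDC to 6.5DDC, 6 of the 10 genes passed the test (edgeR quasi-likelihood test, adjusted p under 0.05), and 18.7% of all genes tested did so. Of the 6, 5 were lower at 6.5DDC (Ccnd1, Ccnd3, Cdk6, Ccne1 and Ccne2), against 9.53% of all genes, and 1 was higher (Cdkn1b), against 9.21%. The median log2 fold change of the 10 was -0.78, beside 0.004 over all genes. In bulk RNA, fewer cells of a type and less RNA per cell cannot be told apart. Without 4.5DDC replicate 2, 2 of the 10 passed and 8% of all genes; without 6.5DDC replicate 2, 2 passed and 7.71% of all genes. With replicates 2 and 3 only, 8 of the 10 passed and 30.7% of all genes.

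**Figure D1:**
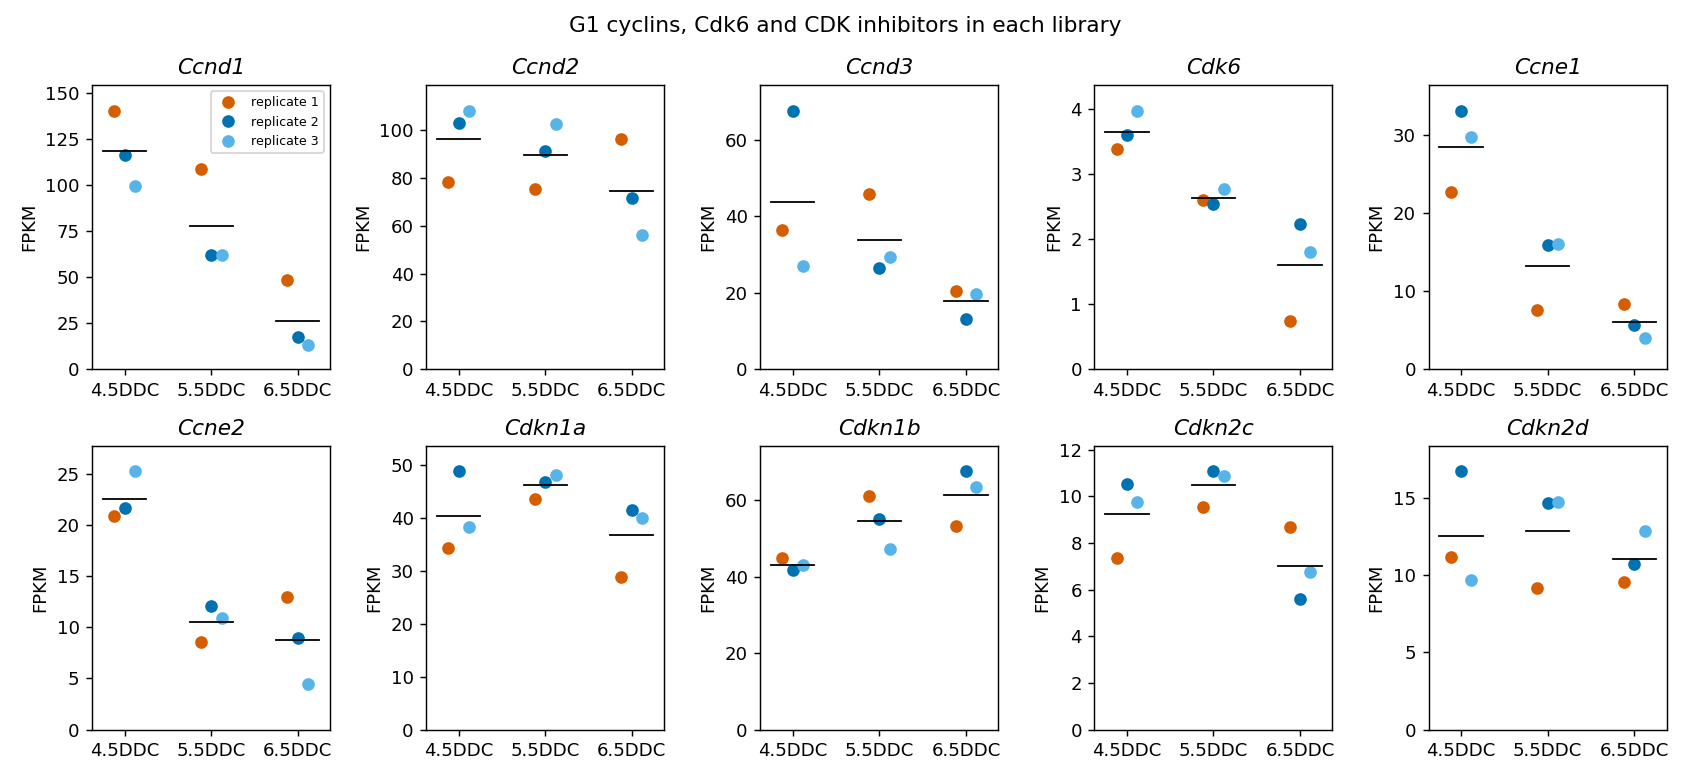
Level of each gene (FPKM, linear axis from 0) in the 9 libraries at 4.5DDC, 5.5DDC and 6.5DDC; points are libraries coloured by replicate number and bars are means of 3. Ccnd1, Ccnd3, Cdk6, Ccne1 and Ccne2 are lower in all 3 libraries of 6.5DDC than in any of 4.5DDC, and Cdkn1b is higher.

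Among the D-type cyclins, Ccnd1 showed the largest change. Its level, as reads scaled to transcript length and library size (FPKM), was 141, 116 and 99.3 in replicates 1, 2 and 3 of 4.5DDC. The 5.5DDC replicates read 109, 62.1 and 62.2 FPKM, and the 6.5DDC replicates 48.6, 17.2 and 13.2 FPKM. All 3 libraries of 6.5DDC lay below every earlier library, and replicate 1 was the highest of its time point each time. Over the whole span Ccnd1 fell by 2.15 ± 0.46 log2 units (SE, adjusted p = 0.0134). Between the replicate 1 libraries the difference in log2 CPM was -1.48, and with replicates 2 and 3 only the log2 fold change was -2.85. The call was lost without 6.5DDC replicate 2 (adjusted p = 0.0592). Adjusted p ranged from 1.63e-05 to 0.0592 over all alternatives.

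For Ccnd3 the replicates of 4.5DDC read 36.4, 67.7 and 26.9 FPKM, those of 5.5DDC 45.9, 26.4 and 29.5 FPKM, and those of 6.5DDC 20.4, 13.2 and 19.6 FPKM. The 6.5DDC libraries lay below all others, while those of the earlier time points overlapped. Ccnd3 fell by 1.12 ± 0.25 log2 units over the span (SE, adjusted p = 0.0168), and its log2 fold change was -1.28 with replicates 2 and 3 only. Without 4.5DDC replicate 2, the library with the highest level, adjusted p was 0.0655, and without 6.5DDC replicate 2 it was 0.0651, in a range over alternatives of 0.00064 to 0.0655.

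Ccnd2 did not pass the test. Its replicates read 78.2, 103 and 108 FPKM at the first time point, 75.5, 91.4 and 103 FPKM at the second, and 96.4, 71.6 and 56.3 FPKM at the last. The 3 time points overlapped, and replicate 1 was the lowest library at 4.5DDC and 5.5DDC but the highest at 6.5DDC. The log2 fold change of Ccnd2 from 4.5DDC to 6.5DDC was -0.38 ± 0.23 (SE, adjusted p = 0.278). With replicates 2 and 3 only it was -0.77 and passed (adjusted p = 0.0166), in a range over alternatives of 0.0166 to 0.59, and between the replicate 1 libraries the difference in log2 CPM was 0.36.

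Summed over the 3 D-type cyclins, 4.5DDC had 259 ± 26.6 FPKM, 5.5DDC had 202 ± 25.95 FPKM and 6.5DDC had 119 ± 40.9 FPKM (SD, n = 3). Ccnd1 made up 55.1%, 40.5% and 42.4% of this sum in the 4.5DDC libraries and 29.4%, 16.9% and 14.8% in the 6.5DDC libraries. Ccnd2 made up 30.7%, 35.9% and 46.2% at 4.5DDC and 58.3%, 70.2% and 63.2% at 6.5DDC. For both genes the shares of 4.5DDC and 6.5DDC did not overlap, and Ccnd2 was the most abundant D-type cyclin in every library of 6.5DDC. The mean difference was -25.6 percentage points for Ccnd1 and 26.3 for Ccnd2, each with p = 0.1 in a two-sided exact permutation test, the smallest p that 3 against 3 can give. The share of Ccnd3 was 16.4 ± 6.34% at 4.5DDC and 15.8 ± 5.40% at 6.5DDC (SD, n = 3, exact permutation p = 0.7). At 5.5DDC the mean shares were 37.9% for Ccnd1, 45.5% for Ccnd2 and 16.6% for Ccnd3.

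**Figure D2:**
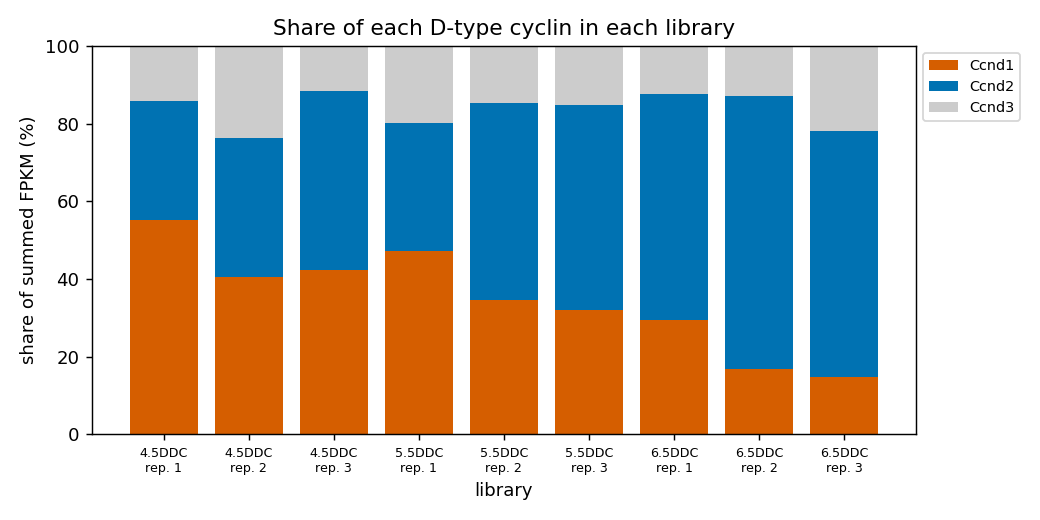
Share of Ccnd1, Ccnd2 and Ccnd3 in their summed FPKM (percent, stacked to 100) in each of the 9 libraries. The Ccnd1 share is 40.5% or more at 4.5DDC and 29.4% or less at 6.5DDC.

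Cdk6, which encodes a kinase partner of the D-type cyclins, had the lowest mean level of the 10 genes at every time point. The 4.5DDC replicates read 3.39, 3.597 and 3.98 FPKM, the 5.5DDC replicates 2.61, 2.54 and 2.78 FPKM, and the 6.5DDC replicates 0.742, 2.24 and 1.81 FPKM. The 3 time points did not overlap, and the low value at 6.5DDC was that of replicate 1. Cdk6 fell by 1.16 ± 0.32 log2 units over the span (SE, adjusted p = 0.0341). With replicates 2 and 3 only its log2 fold change was -0.89, and between the replicate 1 libraries the difference in log2 CPM was -2.07. The call was lost on leaving out any 1 of 6 libraries: adjusted p was 0.0584, 0.0779 and 0.0869 without 4.5DDC replicates 1, 2 and 3, 0.0551 and 0.055 without 5.5DDC replicates 2 and 3, and 0.0569 without 6.5DDC replicate 3. The range over alternatives was 0.00509 to 0.0869, and 15 of 22 alternatives kept the call.

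Ccne1, an E-type cyclin, had a fold change close to that of Ccnd1, and which of them was larger varied between alternatives. Its replicates read 22.7, 33.1 and 29.7 FPKM for 4.5DDC, 7.49, 15.9 and 16.0 FPKM for 5.5DDC, and 8.33, 5.57 and 3.98 FPKM for 6.5DDC. All libraries of 5.5DDC and 6.5DDC lay below those of 4.5DDC, and the later time points overlapped through replicate 1. Ccne1 fell by 2.29 ± 0.38 log2 units over the span (SE, adjusted p = 0.00494), and this was the only call of the 6 that held in all 22 alternatives, with adjusted p from 5.15e-08 to 0.0275. Its log2 fold change was -2.81 with replicates 2 and 3 only, and the replicate 1 libraries differed by -1.38 in log2 CPM.

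Ccne2, the other E-type cyclin, read 20.9, 21.6 and 25.2 FPKM in the replicates of 4.5DDC, 8.61, 12.1 and 10.9 FPKM in those of 5.5DDC, and 12.9, 8.93 and 4.49 FPKM in those of 6.5DDC. The 4.5DDC libraries lay above all others, and the later time points overlapped. Ccne2 fell by 1.34 ± 0.35 log2 units over the span (SE, adjusted p = 0.0283). The log2 fold change was -1.92 with replicates 2 and 3 only, and the replicate 1 libraries differed by -0.51 in log2 CPM. Without 4.5DDC replicate 2, 4.5DDC replicate 3 or 6.5DDC replicate 2, adjusted p was 0.0627, 0.0796 and 0.104, in a range of 0.002 to 0.104. From 5.5DDC to 6.5DDC replicate 1 moved the other way from replicates 2 and 3 for both E-type cyclins, with differences in log2 CPM of 0.28 for Ccne1, against -1.52 and -2.14, and of 0.69 for Ccne2, against -0.69 and -1.31.

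The Ccne1 and Cdkn1b promoters are shown because Ccne1 had the largest fall with all libraries in the edgeR fit, though with replicates 2 and 3 only Ccnd1 was at -2.85 and Ccne1 at -2.81, and because Cdkn1b was the only gene of the 10 to rise. They are RefSeq windows of 250 bases before to 50 after the start site (GRCm38.p6), at chr7:38107441-38107740 on the minus strand and chr6:134920151-134920450 on the plus strand; capitals mark GGGCGG (GC box) and CCAAT, each on either strand.
Ccne1: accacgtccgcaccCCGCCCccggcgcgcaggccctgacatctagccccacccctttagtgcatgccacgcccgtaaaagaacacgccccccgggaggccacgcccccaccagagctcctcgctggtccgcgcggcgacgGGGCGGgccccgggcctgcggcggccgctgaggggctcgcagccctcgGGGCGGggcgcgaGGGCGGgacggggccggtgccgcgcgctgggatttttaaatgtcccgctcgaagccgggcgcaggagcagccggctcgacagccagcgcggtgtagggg
Cdkn1b: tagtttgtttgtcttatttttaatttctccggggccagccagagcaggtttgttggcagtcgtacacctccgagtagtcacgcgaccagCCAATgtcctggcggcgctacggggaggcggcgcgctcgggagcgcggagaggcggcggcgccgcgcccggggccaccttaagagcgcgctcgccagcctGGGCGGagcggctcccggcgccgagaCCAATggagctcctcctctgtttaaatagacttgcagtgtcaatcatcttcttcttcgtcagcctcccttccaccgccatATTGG
Of the 10 genes, 7 had such a window, 10 windows in all; there was none for Ccnd1, Ccnd2 and Ccne2. The first 4 motifs searched, on both strands, were E2F (TTTCCCGC, TTTCGCGC, TTTGCCGC or TTTGGCGC), Gli (TGGGTGGTC), FOXO (GTAAACAA) and the cell cycle homology region (TTTGAA). None of the 10 windows held any of them; the shares over 32851 promoters of the same length were 2.26%, 0.253%, 1.23% and 17.9%. The absence of these letters says nothing of binding by the factors. A further 3 motifs were searched after that outcome was known. GGGCGG was in 7 of the 10 windows (35.7% of all promoters), CCAAT in 4 (37.4%) and TATAAA in 1 (13.6%).

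Of the inhibitors, only Cdkn1b passed the test. The replicates of 4.5DDC read 44.8, 41.8 and 43.0 FPKM, those of 5.5DDC 61.1, 55.01 and 47.3 FPKM, and those of 6.5DDC 53.3, 67.5 and 63.3 FPKM. Every later library lay above every 4.5DDC library, while 5.5DDC and 6.5DDC overlapped. Cdkn1b rose by 0.50 ± 0.13 log2 units over the span (SE, adjusted p = 0.0299), a 1.42-fold change, and by 0.61 log2 units with replicates 2 and 3 only. Adjusted p was 0.0585 and 0.103 without 4.5DDC replicates 1 and 2, 0.057 without 5.5DDC replicate 2, and 0.116 and 0.0595 without 6.5DDC replicates 2 and 3. The range over alternatives was 0.00615 to 0.116, and 16 of 22 alternatives kept the call.

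Cdkn1a, a target of p53 that encodes p21, read 34.4, 48.8 and 38.2 FPKM in the 4.5DDC replicates, 43.6, 46.8 and 48.2 FPKM in those of 5.5DDC and 28.8, 41.5 and 39.9 FPKM in those of 6.5DDC. The first and last time points overlapped, and the log2 fold change between them was -0.15 ± 0.17 (SE, adjusted p = 0.55). The INK4 genes had lower levels. Cdkn2c spanned 7.37 to 10.5 FPKM in the 4.5DDC libraries, 9.56 to 11.1 FPKM in those of 5.5DDC and 5.59 to 8.67 FPKM in those of 6.5DDC, with a log2 fold change over the span of -0.44 ± 0.23 (SE, adjusted p = 0.193). With replicates 2 and 3 only, that of Cdkn2c was -0.76 (adjusted p = 0.0239, in a range over alternatives of 0.0239 to 0.452), and between the replicate 1 libraries log2 CPM differed by 0.21. Cdkn2d spanned 9.71 to 16.7 FPKM, 9.17 to 14.7 FPKM and 9.53 to 12.8 FPKM in the 3 time points, all overlapping, with a log2 fold change of -0.19 ± 0.26 (SE, adjusted p = 0.638).

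Per length, the order of the levels changed over the time course. At 4.5DDC Ccnd1 (119 FPKM) and Ccnd2 (96.6 FPKM) had the highest means, with overlapping ranges, and stood clear of Ccnd3 (43.7 FPKM), Cdkn1b (43.2 FPKM) and Cdkn1a (40.5 FPKM), whose ranges overlapped. At 5.5DDC Ccnd2 (89.9 FPKM) and Ccnd1 (77.8 FPKM) overlapped and stood clear of Cdkn1b (54.5 FPKM). At 6.5DDC Ccnd2 (74.8 FPKM) and Cdkn1b (61.4 FPKM) led, again overlapping, followed by Cdkn1a (36.8 FPKM) and Ccnd1 (26.3 FPKM), which overlapped. Ccne1 went from the sixth mean level to the ninth, next above Cdk6, with a range at 6.5DDC that overlapped that of Cdkn2c.

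The 2 intervals were then taken one at a time. From 4.5DDC to 5.5DDC, 0 of the 10 genes passed edgeR's test, where 0.0746% of all genes did; 2 had an unadjusted p under 0.05, as had 15.4% of all genes. DESeq2 called 1 of the 10 and 3.36% of all genes, the 1 being Ccne1 (adjusted p = 0.0466, in a range over alternatives of 0.0432 to 0.479). With replicate number as a block, 1.44% of all genes passed and still 0 of the 10. With replicates 2 and 3 only, 3.3% of all genes passed and 2 of the 10, Ccnd1 and Ccne1. By level, 4 of the 10 genes had FPKM values that did not overlap between these time points (Cdk6, Ccne1, Ccne2 and Cdkn1b), against 23.8% of all genes.

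From 5.5DDC to 6.5DDC, 0 of the 10 passed, where 0.224% of all genes did; 4 had an unadjusted p under 0.05, as had 18.5% of all genes. DESeq2 called 1 of the 10, Ccnd1, and 4.55% of all genes. With replicate number as a block, 1.32% of all genes passed, and 1 of the 10, Ccnd1, with a log2 fold change of -1.59 ± 0.27 (SE, adjusted p = 0.0308). Ccnd1 also passed without 6.5DDC replicate 1 (log2 fold change -2.25, adjusted p = 0.0181, in a range over alternatives of 0.0104 to 0.542), where 1.13% of all genes did. With replicates 2 and 3 only, 4.82% of all genes passed and 2 of the 10, Ccnd1 and Ccne1. FPKM values did not overlap for 5 of the 10 (Ccnd1, Ccnd3, Cdk6, Cdkn1a and Cdkn2c), against 24.0% of all genes. Between 4.5DDC and 6.5DDC they did not overlap for 6, the genes that passed the test, against 34.5%.

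**Figure D3:**
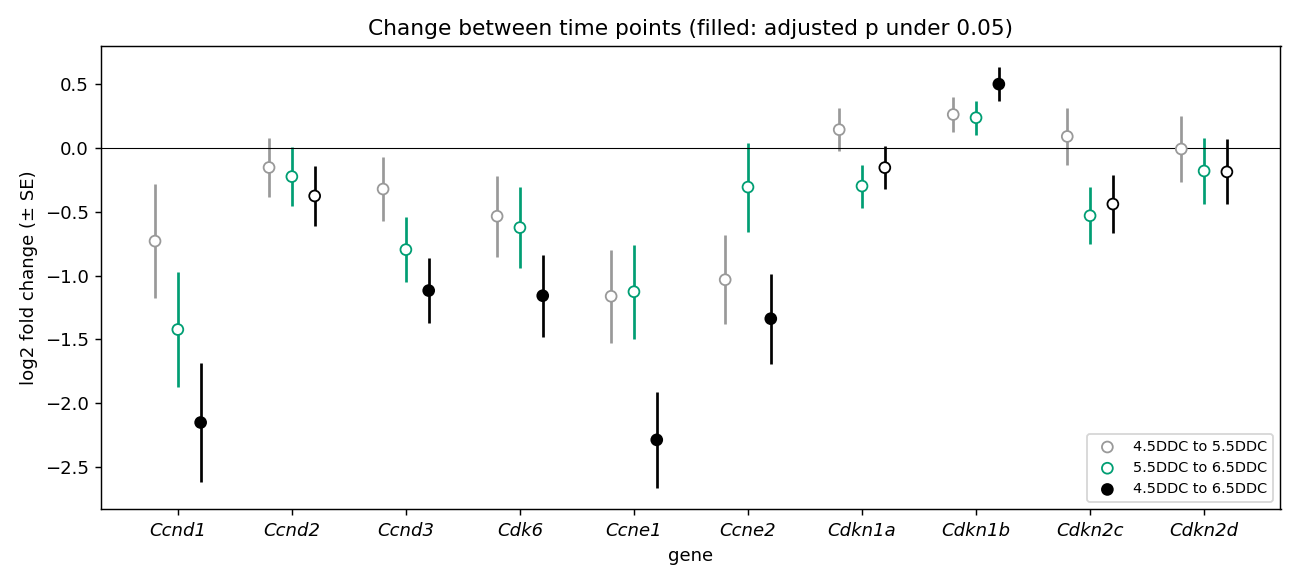
Log2 fold change (± SE) of each gene in the 3 comparisons of time points; filled points have an adjusted p under 0.05. The 6 filled points all belong to 4.5DDC to 6.5DDC.

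Whether a change was unequal between the intervals was tested directly. The change from 5.5DDC to 6.5DDC minus that from 4.5DDC to 5.5DDC passed for 0 of the 10 genes, and for 0% of all genes by edgeR, where 701 genes and 0 of the 10 had an unadjusted p under 0.05. DESeq2 and limma voom also called 0 genes, with 770 and 1008 at an unadjusted p under 0.05. No gene of the set can therefore be placed mainly in 1 interval. Ccne2, for example, had log2 fold changes of -1.03 ± 0.35 and -0.31 ± 0.35 (-0.96 and -0.95 with replicates 2 and 3 only), and Ccnd1 of -0.73 ± 0.45 and -1.42 ± 0.45 (SE).

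Other genes of the same pathway were described from lists, whose counts stand against 9.53% of all genes lower and 9.21% higher at 6.5DDC than at 4.5DDC. Of 6 other kinases and activators of G1 and S phase, 3 were lower at 6.5DDC than at 4.5DDC and 0 higher: Cdc25a, a phosphatase that activates CDK2 (log2 fold change -1.36), Cdk2 (-0.77) and Cdk4 (-0.76). Cdk4 had mean levels of 1482 FPKM at 4.5DDC and 826 FPKM at 6.5DDC, against 3.65 and 1.60 FPKM for Cdk6. Median log2 fold changes over the tested genes were -0.38 for this list, -1.05 for other inhibitors, -0.81 for pocket protein, E2F and DP genes, and -0.10 for ubiquitin ligase genes, beside 0.004 over all genes. Of 3 other inhibitors, Cdkn2b was lower (-1.05), and Cdkn1c and Cdkn2a did not pass. Of 13 pocket protein, E2F and DP genes, 8 were lower, led by E2f7 (-1.96), E2f8 (-1.67), E2f2 (-1.45) and E2f1 (-1.32), and 1 was higher, Rbl2 (0.93), which encodes p130. Of 12 ubiquitin ligase genes tested, 4 were lower: Cks1b (-1.57), Dtl (-1.27), Fzr1 (-1.20) and Skp2 (-1.05). Skp2 and Cks1b act together in the degradation of p27.

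All 14 proliferation markers were lower at 6.5DDC, as were all 5 genes of the list of S, G2 and M phase cyclins and Cdk1, with median log2 fold changes of -1.64 and -1.09 beside 0.004 over all genes. Mcm5 (-2.10), Rrm2 (-2.06), Mcm3 (-1.97) and Plk1 (-1.79) led the former, and Ccnf (-1.69), Cdk1 (-1.16), Ccnb1 (-1.09) and Ccna2 (-1.05) the latter. Summed, the proliferation markers reached 1633 ± 146 FPKM in 4.5DDC libraries, 1052 ± 161 FPKM in those of 5.5DDC and 592 ± 161 FPKM in those of 6.5DDC (SD, n = 3). The share of cycling cells was not measured, and its part in the changes of the 10 genes was not tested. Of 3 Myc family genes (median -0.06), Mycn was lower (-1.39). Of 14 p53 targets other than Cdkn1a (median -0.23), 2 were lower, Pmaip1 (-2.07) and Aen (-1.16), and 1 was higher, Btg2 (0.48), a total of 3 beside 18.7% of all genes.

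**Figure D4:**
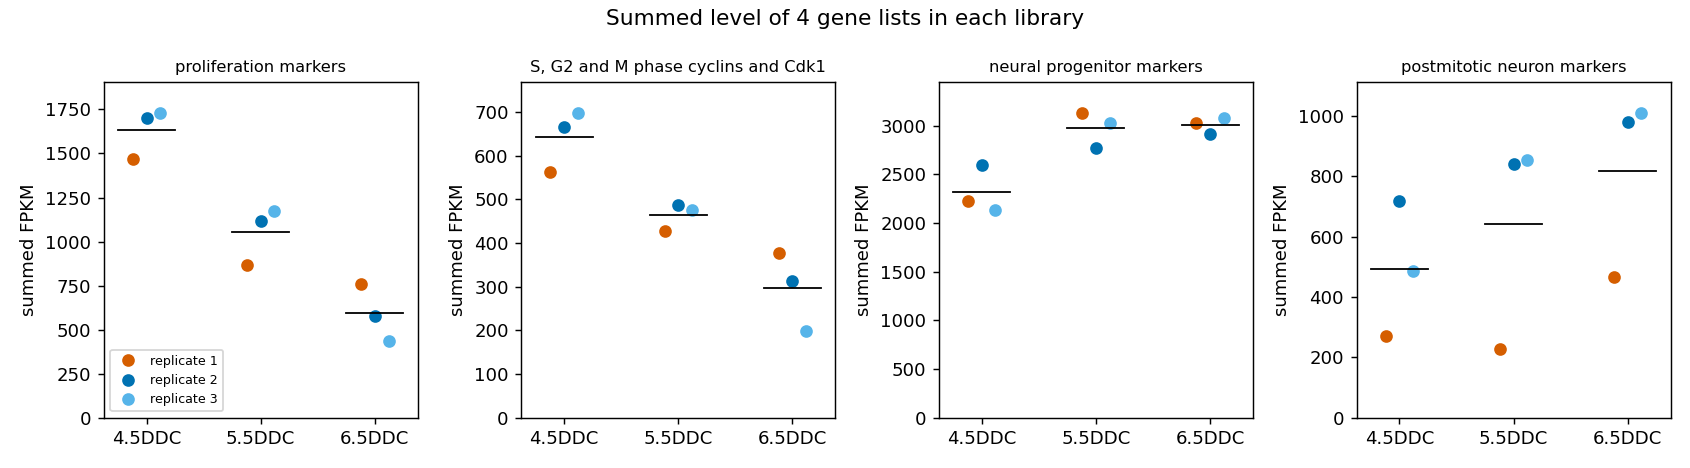
Summed FPKM of 4 gene lists in each of the 9 libraries (linear axes from 0; bars are means of 3, colours are replicate numbers). Proliferation markers are lower in every library of 6.5DDC than in any of 4.5DDC, while in the neuron list replicate 1 is the lowest library at each time point.

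The labelled cell type was checked against its markers. Prom1, the gene of the protein used for sorting, was at 89.3, 62.8 and 85.2 FPKM at 4.5DDC and at 207, 187 and 154 FPKM at 6.5DDC (log2 fold change 1.19 ± 0.18, SE, adjusted p = 0.00364). Of 11 neural progenitor markers (median 0.09), Prom1 was higher and Sox3 lower (-1.80), the other 9 did not pass, and Vim was the most abundant. Log2 fold changes of those 9 lay between -2.10 and 1.08, and 5 of the 11 were negative. Genes of postmitotic neurons were also present: summed, they read 272, 720 and 487 FPKM in the 4.5DDC replicates, 229, 843 and 853 FPKM in those of 5.5DDC, and 466, 979 and 1011 FPKM in those of 6.5DDC. Replicate 1 was lowest each time. Of the 11 neuron markers tested (median 0.78), Syt1 (3.19) and Map2 (1.65) were higher at 6.5DDC, Isl1 (-2.44) was lower and 8 did not pass. By mean level Gap43 was the most abundant over all libraries and at 5.5DDC, but not at 4.5DDC or 6.5DDC. The part of neuronal RNA in the changes of the cyclins and of Cdkn1b was not tested.

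Markers of other cells were summed by list, and their levels differed between the lists. Summed levels at 6.5DDC were 13.5 ± 2.71 FPKM for oligodendrocyte precursors (Mbp most abundant, Sox10 and Olig1 without a count in 7 and 3 of 9 libraries), 3.30 ± 1.56 FPKM for pluripotency (Klf4 most abundant, Tdgf1, Pou5f1 and Nanog without a count in 8, 6 and 3) and 5.70 ± 0.424 FPKM for endothelium and blood (Cdh5 most abundant, Ptprc without a count in 2), as SD with n = 3. Endoderm markers summed to 43.9 ± 16.8 FPKM (SD, n = 3), of which the mean of Foxa1, also a gene of the floor plate, was 38.2 FPKM; Afp had no count in 3 libraries. Mesenchyme and neural crest markers summed to 9.19 ± 4.39 FPKM at 4.5DDC and 33.8 ± 18.5 FPKM at 6.5DDC (SD, n = 3). Among them, Col3a1 had the highest mean at 6.5DDC, with 2.04, 21.4 and 30.4 FPKM in replicates 1, 2 and 3. Twist1 had a higher mean than Col3a1 at 4.5DDC (4.98 against 2.23 FPKM) and 5.5DDC (8.20 against 6.64 FPKM). In replicate 1 of 6.5DDC Twist1 was also the higher (9.225 FPKM). Foxd3 was without a count in 6 libraries. Median log2 fold changes over the tested genes of these lists were 0.11 (5 genes, oligodendrocyte precursors), -0.26 (2, pluripotency), 1.42 (4, endoderm), 1.30 (6, mesenchyme and neural crest) and 0.87 (3, endothelium and blood). From these lists only Twist1 (0.74) and Kdr (1.76) passed from 4.5DDC to 6.5DDC, both higher. The part of RNA from such cells in the changes of the 10 genes was not tested.

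The genes closest in pattern were sought over the 9 libraries, by Pearson correlation of log2 CPM among 11995 other genes whose mean level reached 2 FPKM. For Ccne1 they were Rrm2 (r = 0.997), Fbxo5 (0.995), Sephs2 (0.99), Fancb (0.988) and 2810417H13Rik (0.988); Sephs2 itself did not pass from 4.5DDC to 6.5DDC (adjusted p = 0.0596). For Cdkn1b they were Bbs9 (r = 0.98), Cdk19 (0.978), Ankrd12 (0.975), Fnip1 (0.972) and Dnajc28 (0.971). The libraries share their time points and replicate numbers, and the best of many genes is high by selection, so these are descriptions.

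In the GENCODE M21 annotation of GRCm38, exons of 6 of the 10 genes overlap an exon of a gene on the opposite strand: Ccnd1 (LTO1), Ccnd2 (9330179D12Rik and Gm43126), Ccnd3 (Bysl), Cdk6 (Gm17590), Ccne2 (Ints8) and Cdkn1a (AC167363.2). Whether counting used strand is not given in the sources used here, so reads of such partners may be counted with these genes. No overlap was annotated for Ccne1, Cdkn1b, Cdkn2c and Cdkn2d.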

How the data were processed

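RNA from Prominin-1 sorted NSCs was sequenced from poly-A selected TruSeq libraries as single-end reads. The deposited counts per gene symbol are not normalized: per the labels, the authors aligned reads to GRCm38 with TopHat2 2.0.4 and counted them with HTSeq 0.6.1, a tool that gives whole counts. Of 38197 symbols in the deposited table, 98, none of them one of the 10 genes, held values that were not whole, for a reason not stated, so the values were treated like expected counts and rounded, ties to even. The plan had assumed whole counts. A first run rounded ties up and called 2761 rather than 2763 genes from 4.5DDC to 6.5DDC; the rule was changed after this was seen, to match an earlier analysis of these data. The deposited FPKM values, made by the authors with Cufflinks 2.1.1, served for levels. A deposited table of log2 CPM made from the same counts was not used. Annotation release, strand setting and handling of reads that map to several places are not given in the sources used.

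Counts were filtered with filterByExpr, scaled by TMM (factors 0.951 to 1.035) and fitted with edgeR 4.0.16 (R 4.3.3) by the quasi-likelihood method, time point as factor, over all 9 libraries, with Benjamini-Hochberg adjustment over 14742 genes. DESeq2 1.42.0 and limma 3.58.1 (voom, or on log2 FPKM) gave alternatives, beside RLE scaling, library totals, other filters, replicate blocks and libraries left out. Fits were tested on simulated data. Shares of D-type cyclins were compared by two-sided exact permutation. Tables and figures were made with Python 3.11.15. A count of 0 allows up to 3 counts (0.118 to 0.271 CPM by library), for counting error only.

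Replicate numbers come from the titles. Between adjacent time points they were taken to pair the libraries, by the rule that each same-number correlation is over 0.1: deviations of same-numbered libraries from their time point means correlated by 0.386 to 0.743 (4.5DDC and 5.5DDC) and 0.197 to 0.454 (5.5DDC and 6.5DDC). The highest values were those of replicate 1 (0.743 and 0.454). Replicates 2 and 3 were not always told apart: 5.5DDC replicate 3 correlated by 0.405 with 6.5DDC replicate 2 and by 0.197 with 6.5DDC replicate 3. Deviations within a time point sum to 0, so an outlying replicate 1 by itself raises the correlations among replicates 2 and 3. The rule therefore cannot show that replicates 2 and 3 are paired by number.

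Named are the 10 genes; of the lists, genes that passed from 4.5DDC to 6.5DDC, up to 4 per list by size of change; for cell type lists also the most abundant gene and genes without counts; and the 5 genes closest in pattern to the largest called rise and fall with all libraries in the edgeR fit. Rbl2, Cdkn1c and Cdkn2a fall outside this rule and were named after their values were seen. The lists were other G1 and S phase kinases, other CDK inhibitors, pocket proteins with E2F and DP factors, ubiquitin ligase parts, S, G2 and M phase cyclins, proliferation, Myc, p53 targets, and markers of neural progenitors, neurons, oligodendrocyte precursors, pluripotency, endoderm, mesenchyme and endothelium. Genes and lists were chosen with earlier results of these data known, and 3 of the 7 promoter motifs after the first 4 gave no match. Mycl was matched to its older symbol Mycl1; Fbxo31, Tubb3 and Hbb-bs were not analysed here.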

Additional observations from a re-analysis of the deposited data

How the results depend on the processing

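From 4.5DDC to 6.5DDC the same 6 genes passed with RLE scaling, library totals, no filter, a CPM filter, DESeq2, limma voom, limma on FPKM with either pseudocount, a block of replicate 1 against the others, and ties rounded up, the last chosen after seeing the data. Over all genes DESeq2 called 3681 of 14742 over this span. Fitting only the 6 libraries compared gave 4 of the 10, where 1937 of 14415 genes passed. Leaving out single libraries gave 2 to 6 of the 10. For 4.5DDC to 5.5DDC, 0 became 2 with replicates 2 and 3 only and 1 with DESeq2. For 5.5DDC to 6.5DDC, 0 became 2 with replicates 2 and 3 only and 1 with DESeq2, with the replicate block and with replicate 1 against the others as block; leaving out single libraries gave 0 to 1. The cause was not tested. The test of unequal intervals, whose alternatives were chosen after seeing the data, gave 0 of the 10 in each.

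Between 4.5DDC and 6.5DDC replicate numbers did not pair the libraries (same-number correlations 0.383, -0.0396 and -0.215, not all over 0.1). There, as between adjacent time points, not every library correlated best with its own number. The replicate block gave the same 6 of the 10, and 3418 rather than 2763 genes in all. Apart from Ccnd1 from 5.5DDC to 6.5DDC, which passed with the block, it changed no call of the 10. Over all genes it moved the calls from 11 to 212 and from 33 to 195 in the 2 intervals, where DESeq2 called 495 and 671, replicates 2 and 3 alone 486 and 710 (4530 over the span), replicate 1 against the others as block 484 and 634 (4382 over the span), no filter 25 and 78, limma on FPKM 7 and 12 or 8 and 0, and only 6 libraries 1 and 0. Library totals called 55 in the second. Without single libraries the counts were 1 to 30, 0 to 167 and, over the span, 1137 to 3097.

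The Ccnd3 share difference, -0.689 percentage points, ranged from -3.8 to 2.88 without single libraries; those of Ccnd1 and Ccnd2 kept their sign. The log2 fold change of Cdkn2d from 4.5DDC to 5.5DDC, -0.0069, became 0.018 with library totals, 0.0205 without a filter, 0.026 with the CPM filter, 0.11 with replicates 2 and 3, and 0.041 and 0.044 on FPKM with pseudocounts of 1 and 0.1. Leaving out single libraries gave -0.14 to 0.23 for it, -0.32 to 0.053 for Cdkn2d over the span, -0.054 to 0.17 for Cdkn2c from 4.5DDC to 5.5DDC, and -0.81 to 0.0032 for Ccne2 from 5.5DDC to 6.5DDC; none of these passed the test, and the cause was not tested. A change that did not pass is not shown to be absent.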
